A study of Homo sapiens with 8 samples.

Results

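NR1D1 and 9 related genes of the circadian clock were followed in HEK293T cells, an established line from human embryonic kidney that expresses SV40 large T antigen. The 10 genes were taken from a list of clock repressors and their output factors, and they were 10 of 34290 genes with a count. They comprise the nuclear receptors NR1D1 and NR1D2, the PAR bZIP transcription factors DBP, TEF and HLF, the period genes PER1, PER2 and PER3, and the cryptochromes CRY1 and CRY2. The list was chosen by the measured level of NR1D1, which differed between the 2 groups of this series. The levels of the 10 genes in that contrast are therefore given as a description, without p-values. The series compared HEK293T cells transfected to express tagged human KCNQ3, a subunit of neuronal M-current potassium channels, with normal HEK293T cells. Each group had 4 libraries of total RNA, harvested 48 hours after transfection in the overexpression group. All samples carry one transfection description, and whether control cells were mock-transfected, given an empty vector or left untreated is unknown here. The labels give neither the time of day at harvest nor whether the cultures had been synchronised. The libraries are called biological replicates, but nothing states that they came from separately started cultures, so the spread between them may be technical.

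In the textbook mammalian clock, CLOCK and BMAL1 (gene symbol ARNTL here) bind E-box motifs and drive the PER, CRY, NR1D and PAR bZIP genes. PER and CRY proteins then return to the nucleus and repress CLOCK and BMAL1, which closes the main loop. NR1D1 and NR1D2, also called REV-ERB alpha and REV-ERB beta, are heme-binding repressors that compete with ROR receptors at the ARNTL gene, and DBP, TEF and HLF pass the rhythm on by activating genes with D-box motifs. In dividing cultured cells each cell keeps its own phase unless the culture has been reset, and a bulk RNA library averages over phases. In bulk RNA, fewer cells that express a gene and less RNA per cell cannot be told apart.

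Promoter windows of 300 bases, from 250 before to 50 after a RefSeq start (GRCh38.p14), were found for all 10 genes, in 15 windows. They were searched on both strands for the E-box CACGTG, the related E'-box CACGTT, D-boxes written as TTATGTAA, TTATGCAA or TTACGTAA, the core TAGGTCA or TGGGTCA to which NR1D and ROR receptors bind, and the cAMP response element TGACGTCA. The motifs do not share letters in these windows. The windows below are those of NR1D1, the gene the list was built around, and of the relatives that hold an E-box or a D-box, with 1 window per gene. Capitals mark the motifs.
NR1D1 (chr17:40100540-40100839, minus strand): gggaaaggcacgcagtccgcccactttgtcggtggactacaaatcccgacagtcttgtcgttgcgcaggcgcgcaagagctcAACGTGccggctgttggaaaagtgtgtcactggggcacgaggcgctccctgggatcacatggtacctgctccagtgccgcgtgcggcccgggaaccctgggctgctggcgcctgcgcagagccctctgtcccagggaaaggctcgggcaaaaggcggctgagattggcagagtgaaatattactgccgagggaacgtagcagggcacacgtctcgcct
NR1D2 (chr3:23945871-23946170, plus strand): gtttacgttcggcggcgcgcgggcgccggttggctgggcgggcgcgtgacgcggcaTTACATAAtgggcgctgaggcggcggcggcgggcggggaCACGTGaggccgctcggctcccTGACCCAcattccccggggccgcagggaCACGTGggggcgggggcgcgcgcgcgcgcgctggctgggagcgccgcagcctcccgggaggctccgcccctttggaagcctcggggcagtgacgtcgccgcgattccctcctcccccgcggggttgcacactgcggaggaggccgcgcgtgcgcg
PER1 (chr17:8152355-8152654, minus strand): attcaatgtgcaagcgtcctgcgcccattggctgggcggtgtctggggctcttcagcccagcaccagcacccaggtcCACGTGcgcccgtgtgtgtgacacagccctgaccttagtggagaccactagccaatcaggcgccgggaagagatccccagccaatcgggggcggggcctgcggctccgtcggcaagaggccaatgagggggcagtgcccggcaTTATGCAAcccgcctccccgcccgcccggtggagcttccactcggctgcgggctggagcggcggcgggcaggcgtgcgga
PER2 (chr2:238288561-238288860, minus strand): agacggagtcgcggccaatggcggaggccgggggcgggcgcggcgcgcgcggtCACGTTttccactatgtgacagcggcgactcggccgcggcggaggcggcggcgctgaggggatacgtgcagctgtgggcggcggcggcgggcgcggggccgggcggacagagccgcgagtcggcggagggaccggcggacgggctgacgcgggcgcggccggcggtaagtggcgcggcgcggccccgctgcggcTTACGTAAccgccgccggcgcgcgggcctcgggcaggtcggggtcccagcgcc
PER3 (chr1:7784041-7784340, plus strand): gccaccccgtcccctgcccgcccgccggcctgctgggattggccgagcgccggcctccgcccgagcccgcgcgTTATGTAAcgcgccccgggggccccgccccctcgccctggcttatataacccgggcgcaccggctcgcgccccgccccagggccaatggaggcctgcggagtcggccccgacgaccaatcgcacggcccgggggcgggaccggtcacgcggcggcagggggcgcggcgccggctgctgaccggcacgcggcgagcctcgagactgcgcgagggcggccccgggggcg
TEF (chr22:41367205-41367504, plus strand): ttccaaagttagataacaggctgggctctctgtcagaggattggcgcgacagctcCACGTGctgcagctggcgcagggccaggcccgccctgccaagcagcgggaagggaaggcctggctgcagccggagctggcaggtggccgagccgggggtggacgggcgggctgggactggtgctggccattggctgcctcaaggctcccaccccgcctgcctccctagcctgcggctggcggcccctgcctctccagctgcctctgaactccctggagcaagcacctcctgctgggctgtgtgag
A D-box was present in 4 genes, NR1D2, PER1, PER2 and PER3, and in 1.84% of all 35116 windows of this length. The perfect E-box was present in NR1D2, PER1 and TEF, and in 7.26% of all windows. NR1D2 held a pair of them, 155 and 105 bases before the start. In NR1D1 the only match was an E'-box 168 bases before the start, a motif present in 5.34% of all windows and also found in PER2, CRY1 and CRY2. The NR1D and ROR core occurred in NR1D2 and CRY2 (5.69% of all windows), and the cAMP response element in HLF (1.85%). The window of DBP held none of these letters. A match is a string of letters and no evidence of binding.

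Total estimated counts were 24738542 to 27542588 per library in the overexpression group and 24020097 to 30734915 in the control group, and mitochondrially encoded genes took 4.77% to 5.77% of them with KCNQ3 and 3.94% to 5.53% in controls. KCNQ3 had 15283, 15874, 19709 and 18603 counts in overexpression replicates 1 to 4, and 4, 5, 0 and 2 in control replicates 1 to 4, which fits the labels. All 8 markers listed for HEK293T, among them VIM, NEFM, KRT18 and PAX2, were expressed. Of the markers of other cell types, PTPRC, HBB, CD3E and DCN had no count in any library. LUM, CD68, APOA1 and ALB had 0 to 16 counts per library. The fibroblast collagen genes COL1A1 and COL3A1 were at 15.2 and 1.55 CPM in overexpression libraries and at 15.4 and 1.34 CPM in controls. Of 19280 genes that passed the filter on low counts, 58 (0.301%) passed edgeR's quasi-likelihood test at an adjusted p of 0.05, 21 higher (0.109%) and 37 lower (0.192%) with KCNQ3. All 10 clock genes passed the filter.

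NR1D1 (ENSG00000126368, chromosome 17, 40092787 to 40100725, minus strand, GRCh38) had its 4 overexpression libraries below all 4 controls. Its counts were 143, 96, 126 and 95 in overexpression replicates 1 to 4, and 283, 193, 203 and 182 in control replicates 1 to 4. In CPM (counts scaled to library size, with TMM scaling), it averaged 4.49 ± 0.68 with KCNQ3 and 8.05 ± 0.94 in controls (SD, n = 4 each). The log2 fold change was −0.84 (SE 0.12), which puts the overexpression group at 55.9% of the control level. The highest overexpression library, replicate 1 at 5.37 CPM, lay below the lowest control library, replicate 4 at 7.24 CPM. Length-scaled levels (TPM) gave the same separation, with 2.70 ± 0.51 TPM in overexpression libraries and 5.01 ± 0.75 TPM in controls. Of the 10 genes, NR1D1 was the 1 past the threshold over all genes, against 0.192% of all tested genes called lower. That contrast chose NR1D1, so nothing is read from the count.

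The other member of the receptor pair, NR1D2 (chromosome 3, 23945260 to 23980618), was present at a much higher level and differed less. It had 105, 87.9, 84.0 and 83.8 CPM in overexpression replicates 1 to 4, and 111, 103, 113 and 100 CPM in control replicates 1 to 4. Overexpression replicate 1 lay within the control range and the other 3 lay below it. The log2 fold change was −0.24 (SE 0.07), and −0.33 without that library. NR1D2 had 28.6 ± 4.1 TPM in overexpression libraries and 34.4 ± 3.3 TPM in controls.

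**Figure D1:**
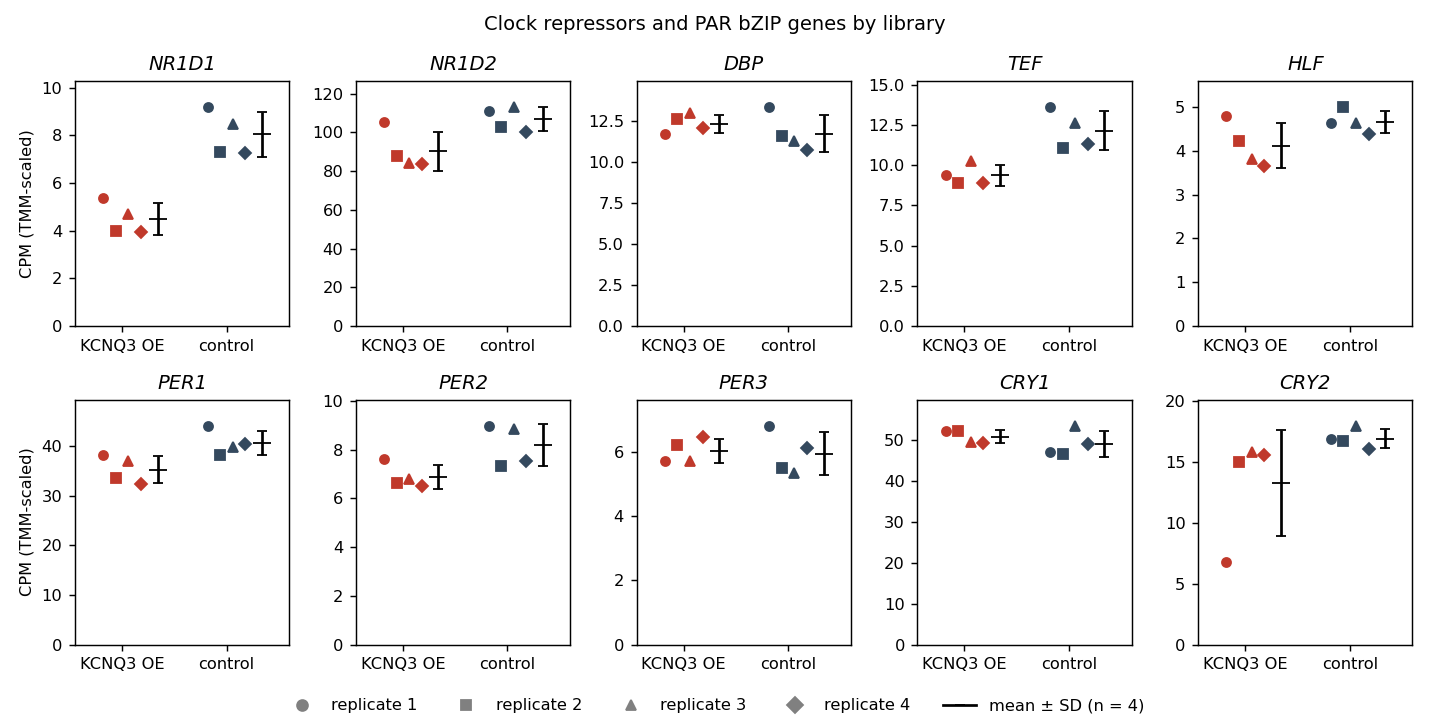
CPM with TMM scaling (y axes, each from 0) of the 10 clock genes in 4 KCNQ3 overexpression and 4 control libraries, with 1 marker shape per replicate and bars for mean ± SD. NR1D1, TEF, PER1 and CRY2 have groups that do not overlap, and CRY2 has 1 overexpression library at 6.75 CPM, far below the rest.

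The period genes encode the rhythmic partners of the cryptochromes, and 2 of the 3 were lower on average. PER1 (chromosome 17, 8140472 to 8156506), which is also induced directly by glucocorticoids and cAMP, had 38.2, 33.6, 37.0 and 32.5 CPM in overexpression replicates 1 to 4, and 44.2, 38.3, 40.0 and 40.5 CPM in control replicates 1 to 4. The groups nearly touched without overlapping, and they overlapped in TPM. The log2 fold change of PER1 was −0.20 (SE 0.06). PER2 (chromosome 2, 238244038 to 238290102) had 7.62, 6.62, 6.79 and 6.51 CPM in overexpression replicates 1 to 4, and 8.98, 7.34, 8.86 and 7.56 CPM in control replicates 1 to 4. Overexpression replicate 1 lay inside the control range, and the log2 fold change was −0.25 (SE 0.09). PER3 (chromosome 1, 7784320 to 7845177), a period gene dispensable for the core loop in mice, did not separate. It had 5.70, 6.21, 5.71 and 6.47 CPM in overexpression replicates 1 to 4, against 6.81, 5.49, 5.35 and 6.12 CPM in control replicates 1 to 4, with a log2 fold change of 0.02 (SE 0.09).

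The cryptochromes, the stronger repressors of CLOCK and BMAL1, gave similar group means for CRY1, and for CRY2 a difference whose size depended on 1 library. CRY1 (chromosome 12, 106991364 to 107093829) averaged 50.7 ± 1.6 CPM in overexpression libraries and 49.0 ± 3.1 CPM in controls, a log2 fold change of 0.05 (SE 0.05). CRY2 (chromosome 11, 45847118 to 45883248) had 6.75, 14.98, 15.8 and 15.5 CPM in overexpression replicates 1 to 4, and 16.9, 16.7, 17.9 and 16.1 CPM in control replicates 1 to 4. The log2 fold change from counts was −0.35 (SE 0.26), and it was −0.14 without overexpression replicate 1. In TPM the same overexpression libraries had 6.78, 5.996, 8.12 and 5.9996, against 7.31, 7.13, 7.70 and 6.44 in controls, and replicate 1 no longer stood apart. In that library the authors' estimate gave 0 counts to ENST00000616623 (4204 bases), the transcript with 348 to 389 counts in the other 3 overexpression libraries. It gave 156 counts to ENST00000417225 (2053 bases), which had none in any other library. Control replicate 1 also showed a switch, with 93 counts for ENST00000616623 and 368 for ENST00000616080, which had none elsewhere. Its CRY2 level, 16.9 CPM, nevertheless lay within the range of the other controls. The low CRY2 count in overexpression replicate 1 thus came with a switch in the transcript that received it, and the switch in control replicate 1 came without a low count. On the log2(TPM + 0.1) scale its difference was −0.09.

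Among the PAR bZIP factors, TEF was the one with a clear gap between groups. TEF (chromosome 22, 41367333 to 41399326) had 9.38, 8.89, 10.3 and 8.87 CPM in overexpression replicates 1 to 4, and 13.6, 11.1, 12.6 and 11.3 CPM in control replicates 1 to 4. The highest overexpression library was below the lowest control library in CPM and in TPM, and the log2 fold change was −0.38 (SE 0.08). DBP (chromosome 19, 48630030 to 48637438), in many tissues the output gene with the largest daily swing, averaged 12.4 ± 0.5 CPM in overexpression libraries and 11.8 ± 1.1 CPM in controls, with a log2 fold change of 0.07 (SE 0.08). In TPM the sign turned, with 13.2 ± 0.4 in overexpression libraries and 14.2 ± 1.7 in controls. HLF (chromosome 17, 55265012 to 55325065) averaged 4.12 ± 0.52 CPM with KCNQ3 and 4.66 ± 0.255 CPM in controls, with overlapping groups and a log2 fold change of −0.18 (SE 0.10).

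In CPM, 4 of the 10 genes had overexpression libraries all below the controls, namely NR1D1, TEF, PER1 and CRY2, where 5.77% of all tested genes did. In TPM 2 did, NR1D1 and TEF, where 4.23% of all tested genes did. The members were chosen with this contrast known, and nothing is read from these counts. The log2 fold changes of the 10 genes had a median of −0.22, against 0.01 over all 19280 genes, and 7 of them were below 0. NR1D1, NR1D2, TEF, HLF, PER1, PER2 and CRY2 stayed below 0 in each of 16 alternative settings. DBP, PER3 and CRY1 changed sign among those settings. The largest difference, that of NR1D1, ran from −0.94 without overexpression replicate 1 to −0.70 on the log2(TPM + 1) scale, and its call over all genes held in 8 of the 16. The call ended on both TPM scales and without control replicate 1, 2 or 3 or overexpression replicate 2, 3 or 4.

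**Figure D2:**
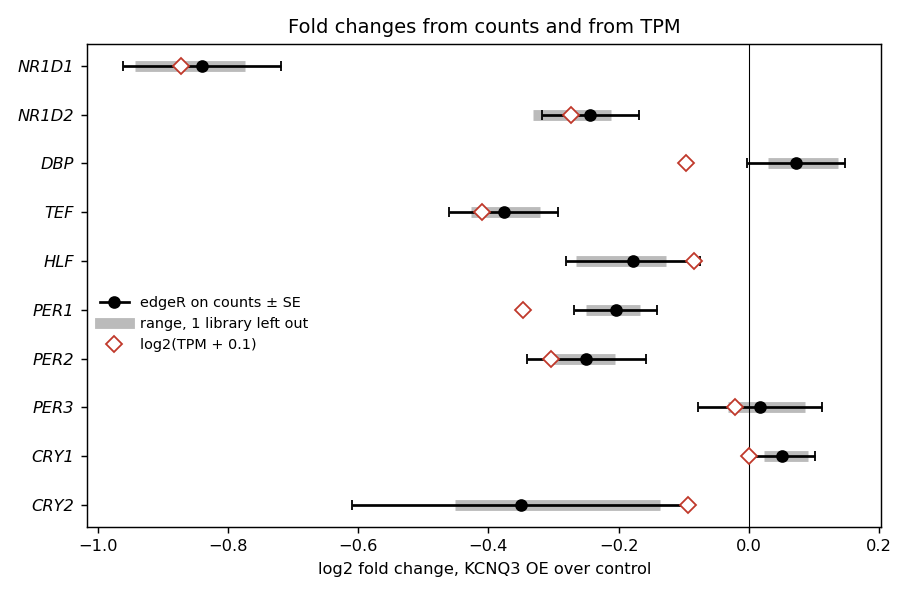
Log2 fold change (x axis, KCNQ3 overexpression over control) of each clock gene from edgeR on counts (black, ± SE), its range when 1 library is left out (grey bars) and the difference in mean log2(TPM + 0.1) (open diamonds). NR1D1 lies at −0.84, apart from the rest, and the TPM values of DBP, HLF, PER1, CRY1 and CRY2 lie outside their grey bars.

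Compared per length, the 10 genes spanned a range of 21.3 times over the 8 libraries. NR1D2 was first at 31.5 ± 4.7 TPM, followed by CRY1 at 26.8 ± 1.6 TPM, PER1 at 15.9 ± 2.5 TPM and DBP at 13.7 ± 1.2 TPM (mean ± SD, n = 8). CRY2 averaged 6.93 ± 0.77 TPM, TEF 3.94 ± 0.75 TPM and NR1D1 3.86 ± 1.37 TPM. PER2, PER3 and HLF were lowest, at 1.93 ± 0.33, 1.63 ± 0.16 and 1.48 ± 0.24 TPM. The ranges of neighbours separated CRY1 from PER1, DBP from CRY2, and CRY2 from TEF. The ranges of the other neighbours overlapped. The order of TEF and NR1D1 turned with the group, since NR1D1 was below TEF in all 4 overexpression libraries and above it in all 4 controls. NR1D1 was above PER2 in each of the 8 libraries. With protein-coding transcripts alone, PER1 was at 12.1 TPM, below DBP at 13.5 TPM.

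**Figure D3:**
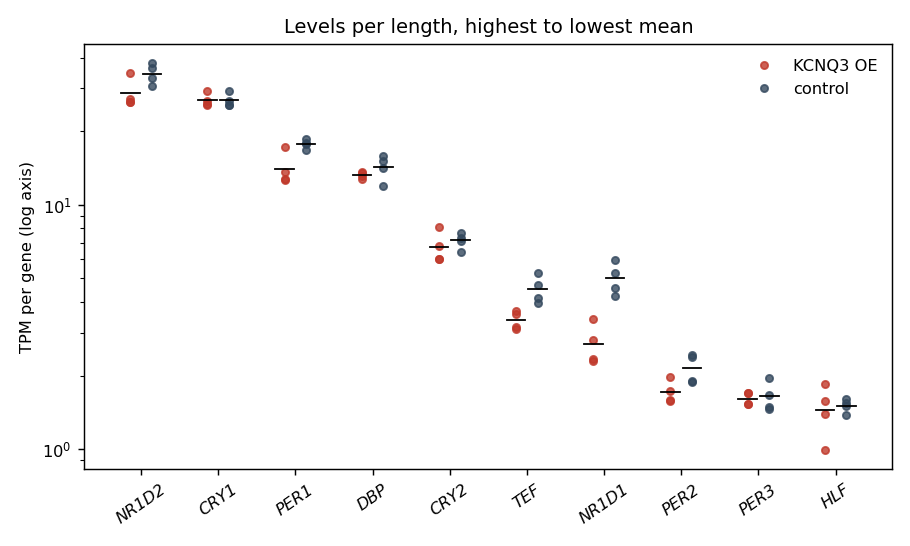
TPM per gene (log y axis) of the 10 clock genes, ordered by their mean over 8 libraries, with overexpression libraries left of control libraries and black bars for group means. NR1D2 and CRY1 lead at 31.5 and 26.8 TPM, and NR1D1 and TEF show the widest gaps between groups.

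The transcript structure bears on how these values were made. NR1D1 has 1 annotated transcript, ENST00000246672 (2772 bases, 8 exons), of which 263 bases (9.49%) lie over exons of THRA, the thyroid hormone receptor alpha gene on the opposite strand. The labels do not say whether counting used strand, so reads in that stretch cannot be assigned to one gene. The 3 THRA transcripts that reach it had 381, 274, 387 and 229 counts in overexpression replicates 1 to 4, and 381, 367, 281 and 300 in control replicates 1 to 4. THRA as a whole averaged 30.7 ± 1.7 CPM in overexpression libraries and 32.7 ± 2.3 CPM in controls (log2 fold change −0.09, SE 0.06, adjusted p = 0.429 by edgeR's quasi-likelihood test). DBP shares 661 exonic bases (10.1%) with SPHK2 on the opposite strand, at 11.4 ± 0.7 CPM in overexpression libraries and 11.4 ± 0.9 CPM in controls. PER3 shares 868 bases with UTS2, which had 0 counts over the overexpression libraries and 4 over the controls, and 482 with Z98884.1, which had 3 counts over the overexpression libraries and 5 over the controls. PER2 shares 188 bases with the noncoding AC012485.1 (2.85 CPM in overexpression libraries and 2.71 CPM in controls), and CRY1 shares 94 bases with AC078929.1, which had no count.

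One transcript held most of the counts of NR1D2, TEF, CRY1 and PER2, each with a mean share above 94% in both groups. DBP was divided between ENST00000222122 (2229 bases), with 65.7% ± 5.5 of the counts in overexpression libraries and 55.5% ± 7.1 in controls, and ENST00000593500 (712 bases), with 25.1% ± 4.3 in overexpression libraries and 31.7% ± 5.7 in controls. A count on the shorter transcript weighs more in TPM than a count on the longer one. In HLF, ENST00000226067 held 78.9% ± 24.4 in overexpression libraries and 79.9% ± 6.0 in controls, and ENST00000575345 had 0, 28, 39 and 0 counts in overexpression replicates 1 to 4. A test of transcript usage (edgeR's diffSpliceDGE) covered 6 of the 10 genes, DBP, HLF, PER1, PER3, CRY1 and CRY2, and called 0 of them, against 0.383% of 9395 genes. None of the 6 had an unadjusted p under 0.05, and 0 were called with limma. The shares vary widely between libraries, and the absence of a call does not show that usage was alike.

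Libraries also differed within groups, and those differences do not use the contrast that chose NR1D1. Each gene's log2 CPM was centred on its group mean, and the deviations of the other 9 genes were compared with those of NR1D1 over the 8 libraries. NR1D1 deviated by 0.26, −0.16, 0.08 and −0.18 in overexpression replicates 1 to 4 and by 0.19, −0.13, 0.08 and −0.14 in control replicates 1 to 4. In both groups replicates 1 and 3 lay above the group mean and replicates 2 and 4 below it. The permutations below arranged each group separately, and an effect shared by same-numbered libraries was not tested. PER2 followed it most closely, with Pearson r = 0.91 (exact permutation p = 0.00521 over all arrangements of libraries within groups, adjusted over 9 relations p = 0.0469). Its Spearman rho was 0.79 (exact permutation p = 0.0191, adjusted p = 0.168). PER1 had r = 0.90 (exact permutation p = 0.0174, adjusted p = 0.0781) and rho = 0.81 (exact permutation p = 0.0382, adjusted p = 0.168). NR1D2 had r = 0.80 (adjusted exact permutation p = 0.0885) and rho = 0.76 (adjusted p = 0.168), and TEF r = 0.77 (adjusted exact permutation p = 0.137) and rho = 0.62 (adjusted p = 0.168). Of the 9 relations, that with PER2 passed by Pearson's r and none passed by rho. With any 1 library left out, r with PER2 stayed between 0.87 and 0.94, and its adjusted exact permutation p was 0.0625 to 0.156. Fewer arrangements exist there, and the lowest possible exact permutation p, 0.00694, becomes 0.0625 for a single relation adjusted over 9. A single relation thus could not pass with 1 library left out. PER2 reached that lowest p without control replicate 2 or 4. Without any other library its exact permutation p was higher, from 0.0208 to 0.0417. On the log2(TPM + 0.1) scale 4 relations passed, those with PER2, NR1D2, PER1 and TEF. The call of PER2 was thus not made in every setting tried, and the settings with 1 library left out could not decide it.

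The libraries farthest from the median of NR1D1 were replicate 1 of each group. Without both, r with PER2 was 0.79 (exact permutation p = 0.0833), r with PER1 was 0.73 (exact permutation p = 0.250), and r with NR1D2 was 0.49 (exact permutation p = 0.361). Leaving out the extremes of NR1D1 narrows its range, which by itself can lower r. How far the relations with PER1, PER2 and NR1D2 rest on those libraries therefore cannot be told. TEF had r = 0.99 over the other 6 libraries, where few arrangements exist and even this r had an exact permutation p of 0.0833. Control replicate 1 had the largest total count of all 8 libraries, and the part of depth in these relations was not tested. DBP (r = 0.32, rho = 0.05), CRY1 (r = 0.22, rho = 0.24), HLF (r = 0.47, rho = 0.48) and PER3 (r = −0.115, rho = −0.31) had adjusted exact permutation p from 0.5 to 0.925 by both measures. For CRY2 r was −0.59 and rho −0.45 (adjusted exact permutation p = 0.4 and 0.5), and r was 0.81 without the 2 replicates numbered 1, where its transcript estimate had moved. Among all 45 pairs of the 10 genes, 31 had r above 0, with a median of 0.25.

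**Figure D4:**
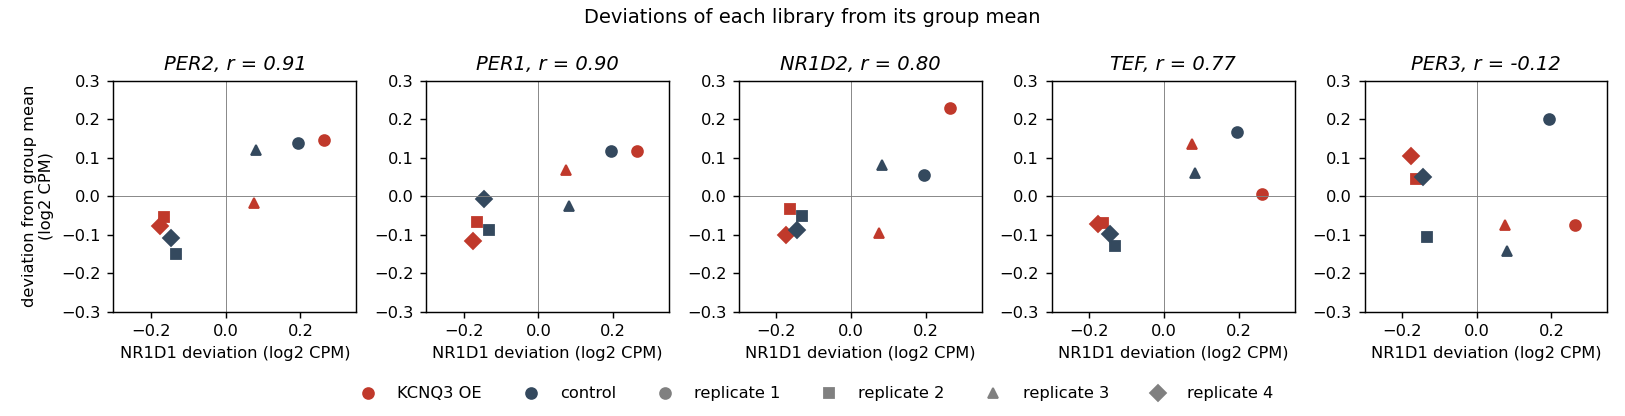
Deviation of each library from its group mean in log2 CPM for NR1D1 (x axes) and for PER2, PER1, NR1D2, TEF and PER3 (y axes), 8 libraries, red for overexpression and dark for control, 1 marker shape per replicate. PER2 and PER1 are higher where NR1D1 is higher (r = 0.91 and 0.90), with replicate 1 of each group at the right end, and PER3 does not (r = −0.115).

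Many genes followed NR1D1 within groups more closely than these relatives did. Among 12275 genes with a mean of at least 5 CPM, PER2 ranked 212 by r, PER1 261, NR1D2 845 and TEF 1049. The 6 genes most like NR1D1 were ZBED4 (r = 0.99), CPSF1, a subunit of the machinery that cleaves messenger RNA 3′ ends (0.99), TBX18 (0.98), ATN1 (0.98), CIZ1 (0.98) and HS3ST3A1 (0.98). The 3 most opposite were SPA17, NIP7 and SRSF3 (each −0.99). None of these 9 genes passed edgeR's test between groups. ZBED4 averaged 61.8 ± 4.1 CPM in overexpression libraries and 63.1 ± 3.0 CPM in controls, a log2 fold change of −0.03 (SE 0.05) beside −0.84 for NR1D1, and CPSF1 was at 0.03 (SE 0.05). The genes that tracked NR1D1 most closely within groups thus had differences between groups from −0.11 to 0.03.

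The rest of the clock pathway was read from 43 tested genes in 5 lists. None passed edgeR's quasi-likelihood test over all genes, where 0.301% of all genes did. At an unadjusted p under 0.05 there were 10 of the 43, against 3737 of 19280. The log2 fold changes were small, with a median of −0.08 against 0.01 over all genes, and 37 of the 43 were below 0, where 47.4% of all genes were. DESeq2 called 1 of them. The lists were chosen with earlier results of these data known, and nothing is read from how many of their genes lay below 0.

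The activators CLOCK and ARNTL did not pass. CLOCK averaged 27.0 ± 1.8 CPM in overexpression libraries and 28.5 ± 1.8 CPM in controls (log2 fold change −0.08, SE 0.06, adjusted p = 0.530). ARNTL, which NR1D proteins repress, had 92, 69, 188 and 45 counts in overexpression replicates 1 to 4, and 138, 152, 162 and 31 in control replicates 1 to 4. Its spread within each group was wide (log2 fold change −0.26, SE 0.61, adjusted p = 0.866). ARNTL2, a paralog of ARNTL, was at 38.2 ± 1.7 CPM in overexpression libraries and 41.6 ± 0.9 CPM in controls (adjusted p = 0.161).

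Other outputs of the loop, 6 genes, all had log2 fold changes below 0, the lowest at −0.20, and none passed. BHLHE40, an E-box repressor, averaged 65.4 ± 8.1 CPM in overexpression libraries and 68.9 ± 6.2 CPM in controls (adjusted p = 0.718), and NFIL3, a repressor that binds D-boxes, 17.6 ± 1.3 CPM in overexpression libraries and 19.6 ± 2.7 CPM in controls (adjusted p = 0.386). Of 12 kinases, ubiquitin ligases and a deacetylase that act on clock proteins, 11 were below 0. The exception, named after its values were seen, was FBXL21, whose mouse counterpart acts on cryptochromes. It averaged 5.78 ± 0.33 CPM in overexpression libraries and 4.68 ± 0.61 CPM in controls, and did not pass (log2 fold change 0.30, SE 0.10, adjusted p = 0.152). CSNK1E, a casein kinase that phosphorylates PER proteins, averaged 515 ± 14 CPM in overexpression libraries and 543 ± 27 CPM in controls (adjusted p = 0.391), and its paralog CSNK1D 204 ± 4 CPM in overexpression libraries and 213 ± 10 CPM in controls (adjusted p = 0.467). Of 9 corepressor subunits and heme enzymes, HDAC3, the deacetylase of the NCOR complex, was at 93.5 ± 3.0 CPM in overexpression libraries and 90.3 ± 2.5 CPM in controls (adjusted p = 0.516). GPS2, another subunit, was at 57.7 ± 2.1 CPM in overexpression libraries and 61.0 ± 3.0 CPM in controls (adjusted p = 0.379).

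ALAS1, named after its values were seen, encodes the rate-limiting enzyme that starts heme synthesis, and heme is the ligand of NR1D1 and NR1D2. It had 1141, 1039, 1236 and 1098 counts in overexpression replicates 1 to 4, and 1685, 1361, 1235 and 1231 in control replicates 1 to 4. It averaged 44.4 ± 1.7 CPM in overexpression libraries and 51.7 ± 2.3 CPM in controls, without overlap (log2 fold change −0.22, SE 0.05). Its adjusted p was 0.0631 by edgeR and 0.00605 by DESeq2, with a range of 0.00605 to 0.229 over 16 alternatives. Without control replicate 4 edgeR called it, and without overexpression replicate 1 edgeR called TBL1X, a subunit of the NCOR complex (adjusted p = 0.0481, against 0.151 with all libraries).

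Stimulus-induced genes that share inducers with PER1 gave 0 calls among 10. Of these, 9 had log2 fold changes below 0, the lowest at −0.24, and the list's median was −0.07. The 2 most abundant follow. TSC22D3, a glucocorticoid target, was at 730 ± 85 CPM in overexpression libraries and 733 ± 55 CPM in controls (log2 fold change −0.01, SE 0.08, adjusted p = 0.978). CREM, a cAMP-responsive factor, was at 17.1 ± 0.4 CPM in overexpression libraries and 17.9 ± 1.3 CPM in controls (adjusted p = 0.603).

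**Figure D5:**
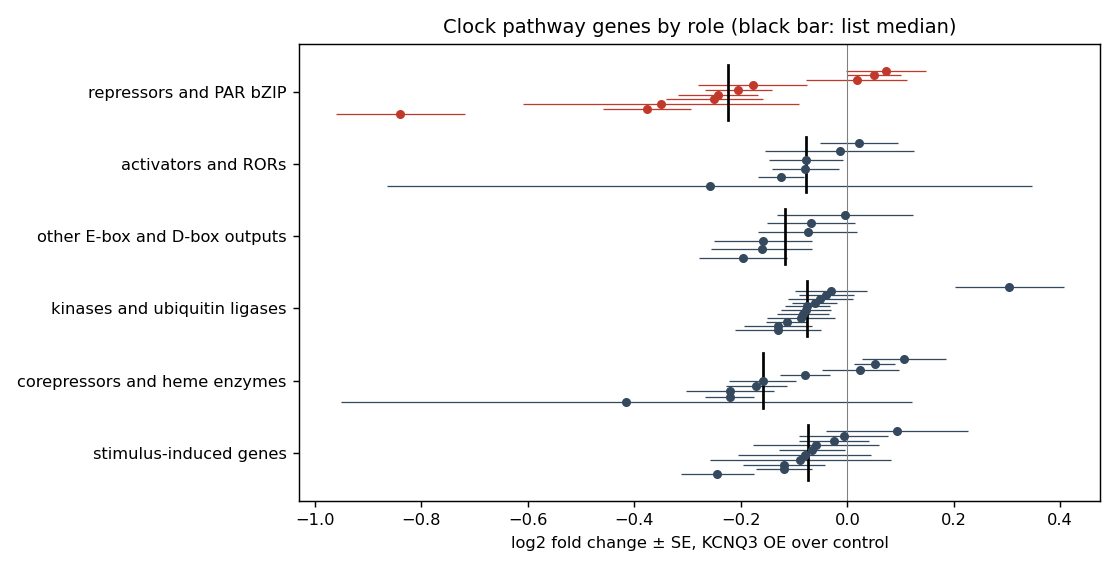
Log2 fold change ± SE (x axis, KCNQ3 overexpression over control) of the 10 clock genes (red) and of 43 other clock pathway genes by role (dark), with a black bar at each list's median. The medians lie between −0.22 for the 10 genes and −0.07 for stimulus-induced genes, and ARNTL and TBL1XR1 have the widest errors.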

How the data were processed

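RNA was sequenced from 8 HEK293T libraries, 4 with KCNQ3 overexpression and 4 controls. The submitters' processing notes name HISAT2 2.1.0 and StringTie 2.1.0, besides SAMtools 1.9, FastQC 0.11.5 and cutadapt 2.8, and build GRCh38.p13. Tool roles, annotation release and strand setting were not given in the sources used here. For each of 227751 Ensembl transcripts the authors deposited an estimated count, as a whole number, and a TPM value.

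Transcripts were joined to GENCODE release 29 genes by identifier (205804 matched, 21947 did not) and summed per gene, so no rounding was needed. Matched transcripts held at least 98.7% of each library's counts. Genes kept by filterByExpr (minimum count 10, minimum total 15) were tested with edgeR 4.0.16 (R 4.3.3, TMM scaling, robust quasi-likelihood test, Benjamini-Hochberg adjustment over all genes, threshold 0.05), without covariates. CPM values are TMM-scaled; log2 CPM for correlations used a prior count of 2. Correlations used exact two-sided permutation within groups. DESeq2 1.42.0 and limma 3.58.1 served as alternatives. The usage test with limma was added after seeing the data. No library was a copy of another of its group (chi-square over degrees of freedom 9.72 to 18.6 per pair).

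The clock genes and gene lists were chosen with earlier results of these data known. Named genes were the 10 clock genes, genes over their exons on the opposite strand, ARNTL, CLOCK, the 2 most abundant of each list where none passed, and the genes most and least like NR1D1. ALAS1, TBL1X, TBL1XR1 and FBXL21 lie outside this rule and were named after their values were seen. The tests were tried on simulated data with known changes. The gene test recovered 97.9% of 4-fold and 89.8% of 2-fold changes, but 57.1% of 1.5-fold and 14.6% of 1.25-fold changes. Of its 133 calls 7 were false. Most calls of the diffSpliceDGE usage test were false, so usage is described by shares.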

Additional observations from a re-analysis of the deposited data

Results flagged for a closer look

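Each of the 10 clock genes was checked in each group of 4 libraries, in CPM and in TPM, for a library far from the other 3. Of 40 such sets, 2 had one, and chance alone gives about 1 in 20.

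CRY2 in overexpression replicate 1 was at 6.75 CPM, with the other 3 overexpression libraries at 14.98 to 15.8 CPM. Its TPM in that library, 6.78, lay within the range of the others. NR1D2 in the same library was at 34.7 TPM, with the other 3 at 26.3 to 27.0 TPM, and it was also the highest of the group in CPM.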

How the results depend on the processing

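The number of genes past the threshold, 58, was 35 without a scaling factor, 727 with DESeq2 and 7 on each TPM scale, and it ran from 8 to 378 when 1 library was left out. Of other clock pathway genes, 0 passed, against 1 with DESeq2 and 0 to 1 when 1 library was left out. On the log2(TPM + 1) and log2(TPM + 0.1) scales DBP was at −0.092 and −0.10 (0.07 from counts) and PER1 at −0.33 and −0.35 (−0.20 from counts). TPM of PER1 and CRY2 from protein-coding transcripts alone was 12.1 and 5.80. On log2(TPM + 0.1), r with NR1D1 was 0.90 for NR1D2, 0.88 for TEF and 0.87 for PER1, all past the threshold, and without a scaling factor it was 0.93 for PER1, past it too. The r of PER2 ran from 0.87 to 0.94 with 1 library left out. Its adjusted exact permutation p there ran from 0.0625, the lowest that a single relation could reach, to 0.156. The cause of these shifts was not tested. Over 7028 genes, same-numbered libraries did not deviate together (r from −0.0873 to 0.168), so the numbers were not taken as pairs. NR1D1 itself deviated alike, by 0.26 and 0.19 in overexpression and control replicate 1 and by −0.18 and −0.14 in replicate 4. Whether the numbers stand for an effect shared by both groups was not tested. With a replicate block the count of genes was 86, the fold change of NR1D1 was −0.84, and r of PER2 turned to −0.18 (adjusted exact permutation p = 0.833, from 4 differences). In that setting r was 0.16 for PER1, 0.63 for NR1D2 and −0.92 for TEF. From 4 differences a single relation could not pass, and CRY2 at r = −0.98 had an adjusted exact permutation p of 0.45. Depth limits NR1D1, PER2, HLF and PER3, with 88 to 283 counts per library.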
